A study of Mus musculus with 178 samples.

Results

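Mthfd2, 4 further genes of serine, folate and asparagine metabolism and 5 genes of the ATF4 stress program were followed in mouse blood during anti-PD-1 treatment. The 10 genes were taken by symbol from the 55450 rows of the count table: Mthfd2, Shmt2, Psat1, Phgdh, Asns, Chac1, Trib3, Ddit3, Atf4 and Atf5. They were chosen by the values of Mthfd2 and Atf5, which moved with day and with response, so for these 2 genes the values by day and response are a description with no test. The other 8 genes were tested in each of those comparisons. All 10 passed the filter on low counts, as did 13688 genes of the table over all libraries.

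Serine is made from a glycolytic intermediate by a chain of enzymes that begins with Phgdh and continues with Psat1. Mitochondrial Shmt2 then passes a carbon from serine to folate, and Mthfd2 oxidises that folate so that the carbon can be used to build purines and other products. Asns makes asparagine, and its gene is a classic target of ATF4, the transcription factor that is translated when the kinases of the integrated stress response phosphorylate eIF2 alpha. Ddit3 (CHOP), Trib3, Chac1 and Atf5 are further genes of that response: Ddit3 is a transcription factor, Trib3 a pseudokinase that restrains it, Chac1 an enzyme that degrades glutathione, and Atf5 a relative of ATF4 known for the mitochondrial stress response. In blood, maturing red cells use one branch of the response, the haem-regulated kinase, to match globin synthesis to the supply of haem.

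The libraries are poly(A) RNA from whole blood of C57BL/6J mice, 6 to 8 weeks old, that carried orthotopic tumors of 4MOSC1, a mouse line of oral squamous cell carcinoma that was made with a carcinogen. Every mouse received antibody against PD-1, so the series holds no untreated group, and every tumor came from the same line. Blood was drawn from each mouse on Day 4, before treatment, and on Days 9, 17 and 24, during it. The mice were sorted into responders and non-responders by the size of the tumor. Responders gave 15, 15, 14 and 15 libraries on these days and non-responders gave 29, 30, 30 and 30, which makes 178 libraries from 45 mice. The mice carry ear tags of either 4 or 3 digits, and the labels do not say what the length of a tag stands for. It is not balanced over response: 11 of the 15 responders on Day 4 have 4 digits, against 7 of the 29 non-responders.

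Libraries held 26058958 to 82208665 counts, of which 68.7% to 88.0% fell on haemoglobin genes, leaving 4536692 to 22177360 counts for all other genes. The Day 24 library of non-responder 29 stood apart: its TMM scaling factor was 0.0848 and the next lowest was 0.266. Results that rest on it are given with and without it, apart from the Day 24 relation to haemoglobin share, which is given with it. The Day 17 library of non-responder 24 carries the label Responder while the rest of that mouse's libraries carry NonResponder, and it was counted with its mouse. These are bulk samples, in which fewer cells of a type and less RNA per cell cannot be told apart.

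ATF4, paired with a C/EBP protein, binds a composite element written TGATGNAA, here called the CARE. It was searched, on both strands, in the 250 bases before the annotated start of each gene, because shared elements are one thing the genes could have in common beyond the rule that chose them. The sequences are RefSeq promoters of build GRCm38.p6, and all 10 genes matched, with 12 windows among them. The element was in 2 of these 12 windows (16.7%), those of Asns and Chac1, and in 3.45% of 32851 mouse windows of that length. The E-box CACGTG, the element of MYC-type factors, and the cyclic AMP element TGACGTCA were in 0 of the 12 windows, against 6.02% and 1.55% of all windows. None of these 3 motifs contains another. A match is a description of the letters, not of binding, and the absence of a match says only that these letters are not in this window. The Asns match and the Chac1 match are shown with the promoter of Mthfd2, the gene the set is named for, which holds none. Capitals mark the element. The Asns stretch, chr6:7693214-7693243 on the minus strand, has its match 23 to 16 bases before the RefSeq start and inside an exon of the GENCODE annotation. The Chac1 stretch is chr2:119350992-119351228 on the plus strand, with the element reading on the other strand 193 to 186 bases before the start. The Mthfd2 stretch is chr6:83317607-83317854 on the minus strand.
Asns: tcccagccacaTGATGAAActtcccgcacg
Chac1: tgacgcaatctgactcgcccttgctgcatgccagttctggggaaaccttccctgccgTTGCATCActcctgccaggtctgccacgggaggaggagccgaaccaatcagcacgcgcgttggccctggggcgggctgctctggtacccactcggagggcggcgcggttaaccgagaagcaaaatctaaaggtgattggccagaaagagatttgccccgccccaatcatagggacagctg
Mthfd2: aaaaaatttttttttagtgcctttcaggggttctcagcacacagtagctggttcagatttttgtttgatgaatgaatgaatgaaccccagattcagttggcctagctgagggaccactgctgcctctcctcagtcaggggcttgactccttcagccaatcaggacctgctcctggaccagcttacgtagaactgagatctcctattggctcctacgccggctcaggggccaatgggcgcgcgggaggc

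Per length, Atf4 was the highest of the set and Trib3 the lowest. On the TPM scale, whose denominator includes haemoglobin, the level of Atf4 averaged 5.95 ± 2.07 (SD, n = 178 libraries) and that of Mthfd2 2.61 ± 1.31. Shmt2 followed at 1.85 ± 0.781, Phgdh at 1.37 ± 0.612 and Ddit3 at 1.31 ± 0.596. Atf5 stood at 0.825 ± 1.15, Psat1 at 0.408 ± 0.196, Chac1 at 0.314 ± 0.379, Asns at 0.219 ± 0.140 and Trib3 at 0.0639 ± 0.0356. With every library included, the gap between neighbours from Mthfd2 down to Asns was under 1 SD of the higher gene. All genes were measured in the same libraries, so these gaps do not say whether the order held within a library. That was not tested, and the gap from Atf5 to Psat1 is left undecided. The SD of Atf5 exceeds its mean and includes the library that stood apart, in which Atf5 was far above the others. These gaps were not compared without that library. The gaps from Atf4 to Mthfd2 and from Asns to Trib3 were larger than 1 SD of the higher gene. In GRCm38 with GENCODE annotation Mthfd2 spans chr6:83305691-83325908, Asns chr6:7675169-7693254 and Atf5 chr7:44812256-44816658, all on the minus strand, and Atf4 chr15:80255184-80257541 on the plus strand. Chac1 and Trib3 are on chromosome 2, Shmt2 and Ddit3 on chromosome 10, Phgdh on chromosome 3 and Psat1 on chromosome 19. Several overlap another gene on the opposite strand (Shmt2 with Ndufa4l2, Ddit3 with Mars, Atf5 with Il4i1 and Nup62), and the sources used here do not say whether counting used strand.

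**Figure D1:**
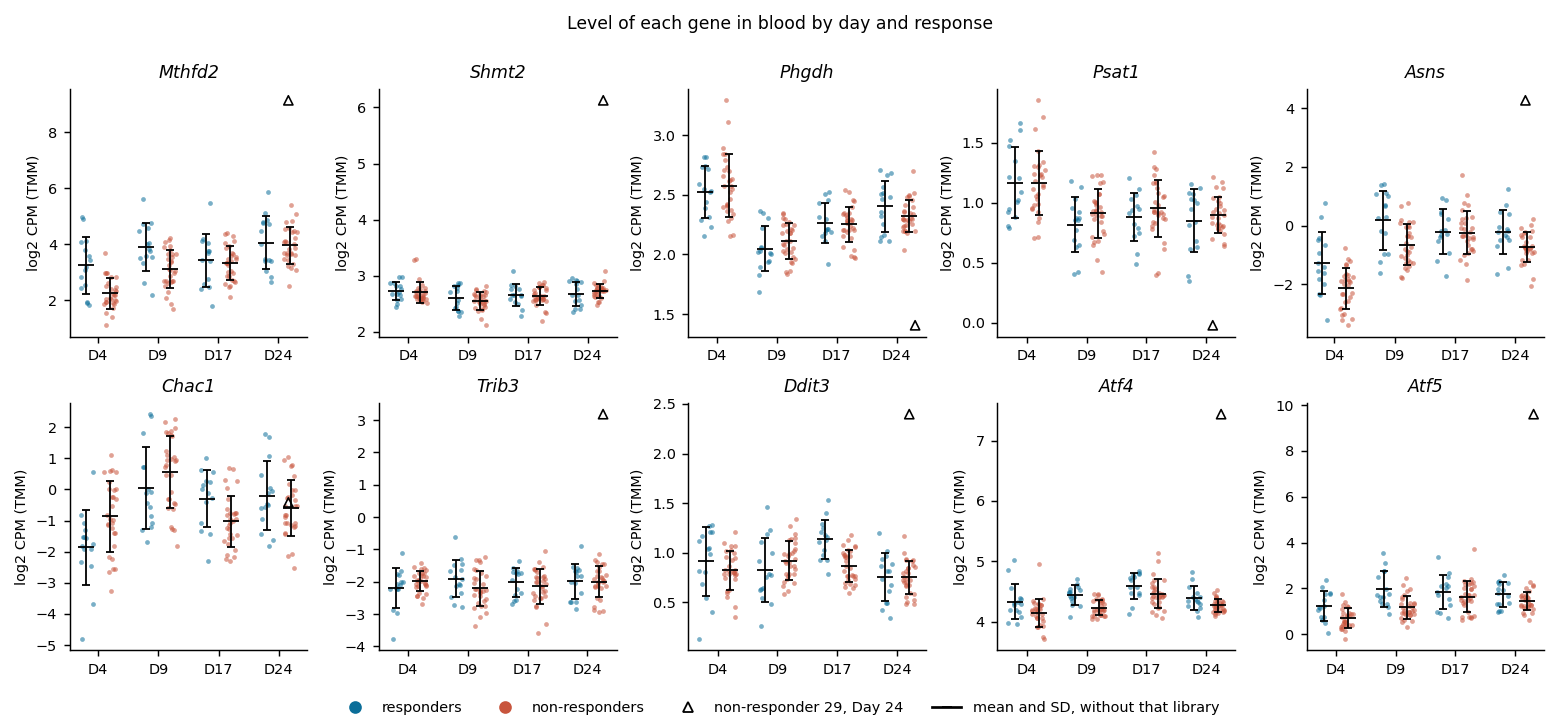
Level of each gene in every library, as log2 CPM after TMM scaling (vertical axis, a different range for each gene), by day and response (horizontal axis). Points are libraries, black bars the mean and SD, and the open triangle the Day 24 library of non-responder 29, which is left out of its bar. By edgeR on this scale Asns was called higher in responders on Days 4 and 9 and Atf4 on Day 9, and on TPM neither was called higher. The points of the groups overlapped, and the triangle lies far from its group for every gene except Chac1.

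The first comparison asks which of these genes differed in blood between mice that responded and mice that did not, on each day. By edgeR with TMM scaling Asns was higher in responders before treatment and on Day 9, by about 1 log2 unit, and Mthfd2 and Atf5, whose values are a description, lay higher by 0.60 to 1.25 on those days, while the serine synthesis enzymes Phgdh and Psat1 showed no called difference on any day. On TPM, whose denominator includes haemoglobin, these statements did not hold. Values are log2 CPM, counts scaled to library size, and differences are log2 fold changes ± SE, responders minus non-responders.

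Mthfd2 on Day 4 ran from 1.85 to 4.98 log2 CPM in responders, with a median of 3.21. In non-responders it ran from 1.11 to 3.69, with a median of 2.18. The groups overlapped, with the upper end of the responders above every non-responder. The differences were 1.25 ± 0.22 on Day 4, 0.87 ± 0.22 on Day 9 and 0.27 ± 0.23 on Day 17. On Day 24 the difference was -0.76 ± 0.49 with every library and 0.24 ± 0.23 without that of non-responder 29, whose Mthfd2 level of 9.14 compares with a highest value of 5.41 in the other non-responders. Adding the length of the ear tag to the fit gave 1.16 on Day 4, 0.56 on Day 9 and -0.21 on Day 17.

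Atf5 followed a like course. Its Day 9 level lay between 0.87 and 3.53 log2 CPM in responders (median 1.71) and between 0.30 and 2.47 in non-responders (median 1.03). The differences were 0.60 ± 0.16 on Day 4, 0.91 ± 0.19 on Day 9 and 0.20 ± 0.23 on Day 17. With the length of the ear tag in the fit they were 0.63, 0.48 and -0.26. On Day 24 the value turned on 1 library, from -2.87 ± 0.91 with it to 0.31 ± 0.14 without it, since Atf5 reached 9.60 in that library and 2.29 at most in the other non-responders.

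Among the 8 genes that were tested, 1 was called on Day 4 (Asns), 2 on Day 9 (Asns and Atf4), 1 on Day 17 (Ddit3) and 0 on Day 24, where called means an adjusted p no larger than 0.05. Over all genes tested, 7.42%, 13.4%, 1.99% and 8.55% were called on these days, the last made up of 3.41% higher and 5.14% lower. The counts are too small to set apart from that background. These are edgeR calls. On Day 24, 0 of the 8 also had an unadjusted p under 0.05, and DESeq2 called 2 (Asns and Atf4). On Day 4 DESeq2 called 2 (Asns and Chac1).

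The picture depended on the scale. On log2(TPM + 1), tested with limma, 7 of the 8 genes were called on Day 4 and 7 on Day 9, all of them lower in responders, and 0 on Day 17. Most genes of the table were lower on that scale: 83.8%, 88.3% and 0.00799% of all genes were called on these days, with 83.6% and 87.5% lower on Days 4 and 9, so the 7 of 8 are near the background. Asns was the gene not called, with differences of 0.0049 ± 0.0226 on Day 4 and 0.0507 ± 0.0459 on Day 9. Its mean TPM is below the 1 added before the log, which draws differences of so low a gene toward 0. These 2 values are thus not on a like scale with its log2 CPM differences. With 0.1 added in place of 1, Asns was not called on these days either. Atf4 differed by -0.51 on Day 4 and by -0.42 ± 0.12 on Day 9 (adjusted p = 0.00164), Phgdh by -0.46 and -0.38, and Psat1 by -0.21 and -0.19. For Mthfd2 the values were 0.11 ± 0.10 and 0.0402 ± 0.114, and for Atf5 -0.0912 and 0.0565. The values that follow are on the TMM scale.

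Asns was the called gene with the largest difference. On Day 4 its level ran from -3.21 to 0.78 log2 CPM in responders, with a median of -1.42, and from -3.40 to -0.78 in non-responders, with a median of -1.99. Responders were 1.03 ± 0.29 higher, a 2.04-fold difference with an adjusted p of 0.0184. On Day 9 responders ran from -1.61 to 1.43 (median 0.30) and non-responders from -1.80 to 0.78 (median -0.76), a difference of 1.01 ± 0.25 with an adjusted p of 0.00246. The groups overlapped on both days, with the upper end of the responders above every non-responder. On Day 17 the difference was -0.01 ± 0.25, with a 95% interval from -0.50 to 0.48. On Day 24 it was 0.32 ± 0.35 with an adjusted p of 0.634, and 0.62 ± 0.19 with an adjusted p of 0.0156 without the library of non-responder 29, a fit in which 21.4% of all genes were called. The Day 4 call was lost without responder 2 or without responder 8, with adjusted p up to 0.0884, and the Day 9 call held without any 1 responder.

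Atf4 differed by little but with a narrow spread. On Day 9 it lay between 4.07 and 4.71 log2 CPM in responders (median 4.47) and between 4.05 and 4.45 in non-responders (median 4.20). The difference of 0.21 ± 0.04, or 1.16-fold, had an adjusted p of 1.62e-04, while on TPM its sign was the opposite: Atf4 averaged 4.95 ± 1.92 TPM in responders (n = 15) and 6.83 ± 1.93 in non-responders (n = 30). It was 0.20 ± 0.08 on Day 4 with an adjusted p of 0.14 and 0.13 ± 0.07 on Day 17 with an adjusted p of 0.322. On Day 24 its sign depended on 1 library: -0.18 ± 0.21 with that of non-responder 29, in which Atf4 was at 7.44, and 0.13 ± 0.05 with an adjusted p of 0.0434 without it.

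Ddit3, the gene of CHOP, was called by edgeR and by DESeq2 on Day 17 alone among the days. Responders ran from 0.79 to 1.53 log2 CPM that day (median 1.14) and non-responders from 0.59 to 1.18 (median 0.86). The difference of 0.28 ± 0.06, or 1.21-fold, had an adjusted p of 0.02, which became 0.0556 without responder 13.

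Chac1 had wide intervals and no call by edgeR: -1.07 ± 0.38 on Day 4 (adjusted p = 0.0719), -0.25 ± 0.37 on Day 9, 0.76 ± 0.27 on Day 17 (adjusted p = 0.0917) and 0.44 ± 0.30 on Day 24. It became a call on Day 4 without responder 1 and on Day 17 without responder 2. Trib3 differences ran from -0.19 to 0.34 over the days, none called by edgeR. The -0.19 was that of Day 24 with the library of non-responder 29, in which Trib3 was at 3.18. Without that library Trib3 averaged -2.01 log2 CPM in non-responders on Day 24, against -1.99 in responders. For Shmt2, Psat1 and Phgdh the differences on Days 4, 9 and 17 lay between -0.09 and 0.05. Their 95% intervals on Day 9 were -0.06 to 0.16 for Shmt2, -0.22 to 0.05 for Psat1 and -0.17 to 0.04 for Phgdh.

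The length of the ear tag moved with these results. With it as a covariate the Asns difference was 0.91 ± 0.33 on Day 4 (adjusted p = 0.0578) and 0.64 ± 0.26 on Day 9 (adjusted p = 0.146), that of Atf4 on Day 9 was 0.13 ± 0.04 (adjusted p = 0.0476), that of Ddit3 on Day 17 was 0.24 ± 0.07 (adjusted p = 0.343) and that of Chac1 on Day 4 was -0.02 ± 0.34. Within mice of 4 digits alone the Asns differences were 0.54 on Day 4 and 0.54 on Day 9, and within mice of 3 digits 1.35 and 0.84. None of the 4 was called (edgeR adjusted p 0.438 and 0.515, then 0.151 and 0.366). The Atf4 difference on Day 9 was 0.22 ± 0.06 with 4 digits (edgeR adjusted p = 0.213) and 0.02 ± 0.06 with 3 digits (0.951), and neither was called. Each of those fits holds few mice of 1 group, with 7 non-responders of 4 digits and 4 responders of 3 digits on Day 9.

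Reticulocyte markers moved with response as well. The mean log2 CPM of a list of 10 reticulocyte genes, all of which passed the filter, ran from 6.47 to 9.75 in responders on Day 4 (median 7.94) and from 5.97 to 8.11 in non-responders (median 6.96). On Day 9 it ran from 7.37 to 9.23 (median 8.69) against 6.37 to 8.71 (median 7.62). The haemoglobin share of counts averaged 83.0% in responders and 77.8% in non-responders on Day 4, and 82.7% and 78.2% on Day 9. Their part in the differences of Mthfd2, Asns, Atf4 and Atf5 was not tested.

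**Figure D2:**
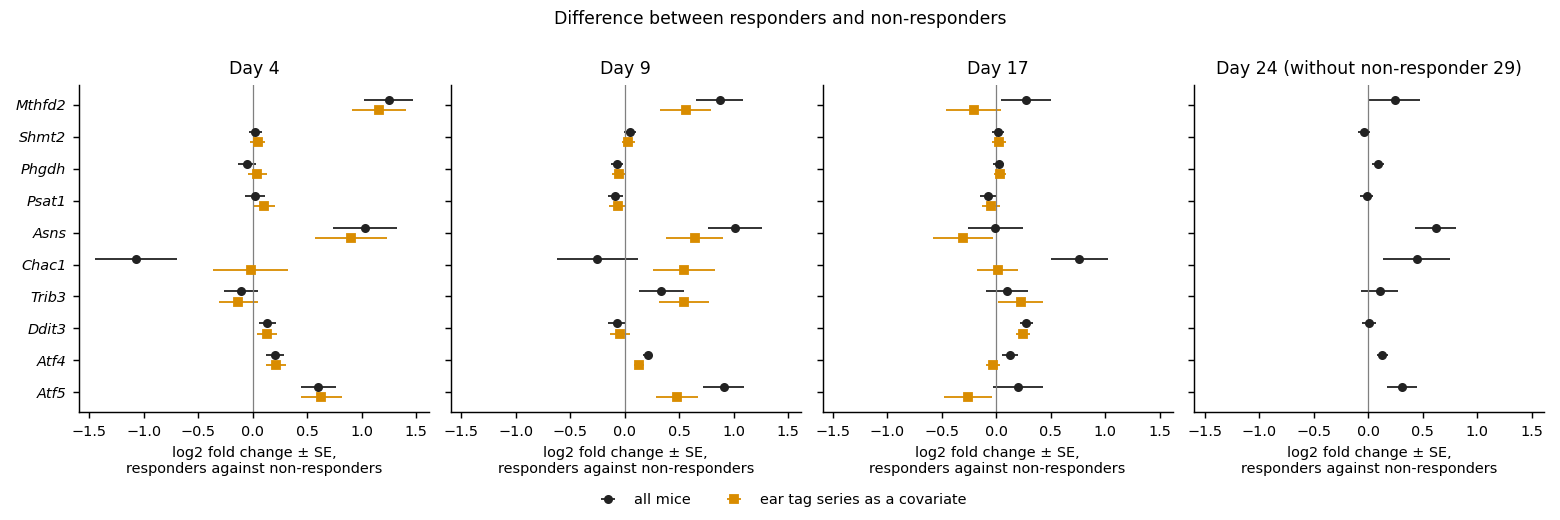
Log2 fold change of responders against non-responders (horizontal axis) for each gene (vertical axis) on each day, with bars of 1 SE. Black circles are the fit without a covariate, which on Day 24 leaves out the library of non-responder 29, and orange squares the fit with the length of the ear tag as a covariate, drawn for Days 4, 9 and 17. On this TMM scale Mthfd2, Asns and Atf5 lie right of 0 on Days 4 and 9 in both fits, and Chac1 on Day 4 goes from -1.07 to -0.02.

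The second comparison follows each response group from the bleed before treatment to those during it. By edgeR with TMM scaling, over mice of both tag lengths, Asns rose and the serine synthesis gene Psat1 fell in both groups on every day. By the same fits Phgdh fell in both on Days 9 and 17 and in non-responders on Day 24. Chac1 rose by these fits in responders on every day and in non-responders on Day 9. Of the 8 tested genes, 4, 5 and 3 were called in responders on Days 9, 17 and 24, where 27.7%, 25.6% and 17.4% of all genes were, with 9.94% lower on Day 24. In non-responders it was 4, 4 and 4, against 50.8%, 46.1% and 48.7% of all genes (24.8% lower on Day 24), so the count there is near the background. On log2(TPM + 1) with limma, 2, 0 and 0 of the 8 were called in responders (1.7%, 0.207% and 0.112% of all genes), the 2 being Asns (0.22) and Chac1 (0.31), higher on Day 9. The falls of Psat1 and Phgdh in responders were not called on that scale. In non-responders it was 3, 6 and 7, against 20.3%, 62.3% and 70.4% of all genes, with Asns higher and Phgdh lower on each day. The values that follow are on the TMM scale.

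Mthfd2 in non-responders had medians of 2.18, 3.11, 3.33 and 3.94 log2 CPM on Days 4, 9, 17 and 24. Its change from Day 4 was 0.93, 1.10 and 2.73 log2 units, the last of which was 1.77 ± 0.17 without the library of non-responder 29. It was higher than on Day 4 in 24, 27 and 28 of the 29 non-responders with both libraries. In responders the medians were 3.21, 3.82, 3.57 and 4.02 and the changes 0.59 ± 0.34, 0.16 ± 0.35 and 0.79 ± 0.34, with 11 of 15, 8 of 14 and 9 of 15 mice higher. Atf5 gave changes of 0.54, 1.09 and 3.83 in non-responders (0.78 ± 0.14 for the last without that library) and of 0.87, 0.72 and 0.52 in responders. These values are the ones that chose the 2 genes.

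Asns rose on every day in both groups. Its medians in non-responders were -1.99, -0.76, -0.33 and -0.74 log2 CPM, and in responders -1.42, 0.30, -0.24 and -0.21. The rise in non-responders was 1.62 ± 0.27 on Day 9 (adjusted p = 1.09e-07) and 2.10 ± 0.26 on Day 17 (adjusted p = 7.12e-11), when 29 of 29 mice were above their own Day 4 value. On Day 24 it was 1.82 ± 0.27, or 1.46 ± 0.20 without the library of non-responder 29, with 28 of 29 mice higher. In responders it was 1.68 ± 0.34 on Day 9 (adjusted p = 1.51e-04), 1.14 ± 0.35 on Day 17 (0.0131) and 1.12 ± 0.34 on Day 24 (0.0188), with 12 of 15, 13 of 14 and 12 of 15 mice higher.

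Phgdh, the first enzyme of serine synthesis, fell most on Day 9. Its level in responders ran from 2.16 to 2.82 log2 CPM on Day 4 (median 2.53) and from 1.69 to 2.37 on Day 9 (median 2.02), and 0 of 15 mice were higher on Day 9. It fell by 0.47 ± 0.07 in responders (adjusted p = 2.36e-06) and by 0.48 ± 0.05 in non-responders (adjusted p = 3.95e-15), of which 1 of 29 was higher. On Day 17 it fell by 0.26 ± 0.07 in responders and by 0.35 ± 0.05 in non-responders. By Day 24 the fall was 0.29 ± 0.05 in non-responders, while the change of -0.12 ± 0.07 in responders was not called (adjusted p = 0.243). Psat1, the next enzyme, fell by 0.34, 0.29 and 0.31 in responders on the 3 days (edgeR adjusted p at most 0.0151) and by 0.26, 0.22 and 0.29 in non-responders. The 2 genes thus changed in the direction opposite to Asns. Shmt2, which takes serine into the folate cycle, was not called in either group. Without the library of non-responder 29 its change of -0.16 ± 0.04 on Day 9 in non-responders had an adjusted p of 7.17e-04.

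Atf4 rose on Day 17, by 0.24 ± 0.08 in responders (adjusted p = 0.0239) and by 0.30 ± 0.12 in non-responders (adjusted p = 0.0296), with 11 of 14 and 27 of 29 mice higher. The sign depended on the scale in non-responders: on log2(TPM + 1) the change was -0.0778 (limma adjusted p = 0.478), with means of 6.91 ± 2.75 TPM on Day 4 (n = 29) and 6.17 ± 1.28 on Day 17 (n = 30). In the responders of 3-digit tags it was -0.0495 on the TMM scale. The Day 24 rise of 0.39 ± 0.12 in non-responders (adjusted p = 0.00396) became 0.09 ± 0.05 (adjusted p = 0.0989) without the library of non-responder 29, and 0.11 ± 0.04 (adjusted p = 0.0187) without it and with the mouse as a block. Ddit3 and Trib3 were not called in either group on any day: their changes lay between -0.20 and 0.18 for Ddit3 and between -0.17 and 0.35 for Trib3. The 0.35 was that of non-responders on Day 24. It was -0.0067 without the library of non-responder 29 and with the mouse as a block.

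Chac1 rose in responders by 2.34 ± 0.43 on Day 9 (adjusted p = 3.80e-05), 1.53 ± 0.45 on Day 17 (adjusted p = 0.009) and 1.72 ± 0.44 on Day 24 (adjusted p = 0.00589). Its medians in them were -1.74, -0.12, -0.06 and -0.47 log2 CPM, and 14 of 15, 11 of 14 and 14 of 15 mice were higher. In the 4 responders of 3-digit tags alone the Day 17 change was -0.84 ± 0.73 (edgeR adjusted p = 0.441). In non-responders it rose by 1.51 ± 0.25 on Day 9 (adjusted p = 1.74e-07), and its changes of -0.32 ± 0.27 on Day 17 and 0.16 ± 0.26 on Day 24 were not called. The Day 17 values ran from -2.30 to 0.68 there, with a median of -1.04.

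**Figure D3:**
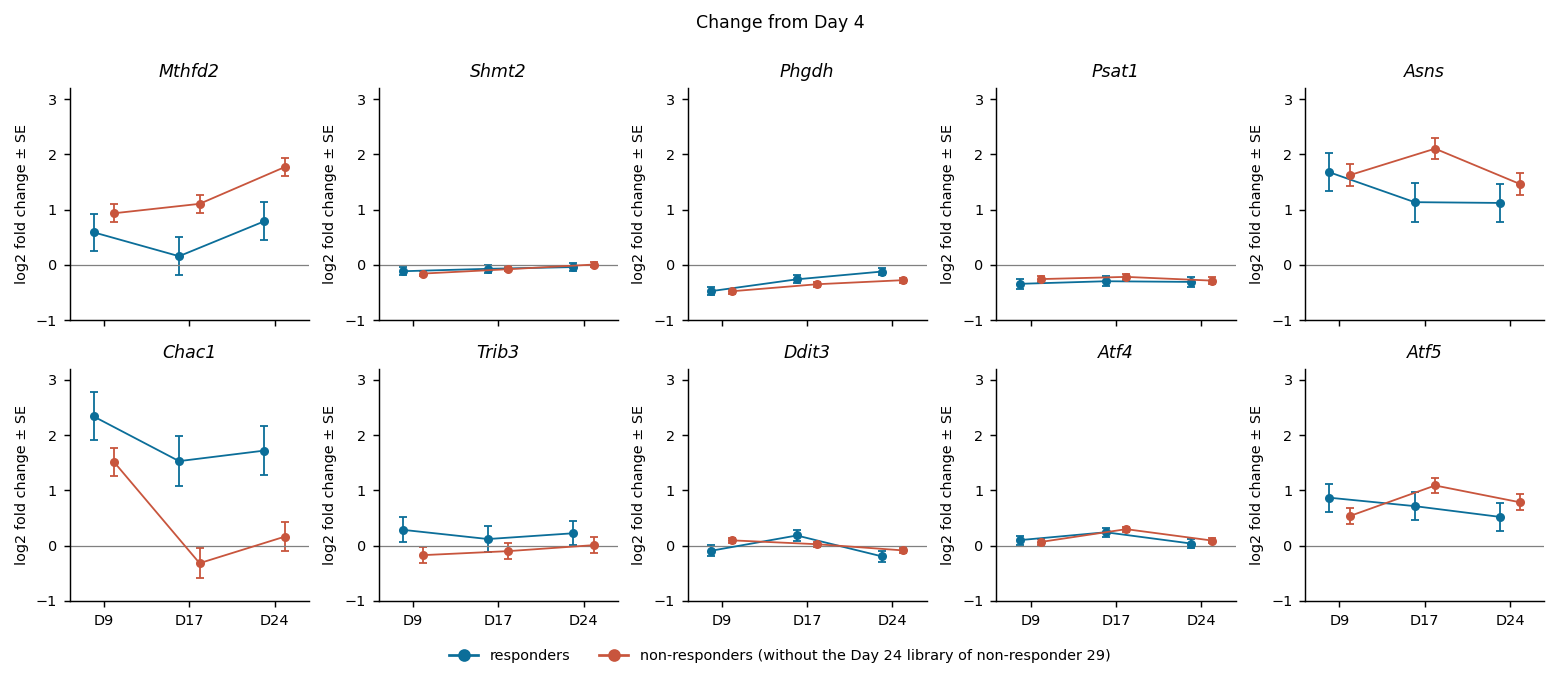
Log2 fold change from Day 4 ± SE (vertical axis, the same range in each panel) on Days 9, 17 and 24 (horizontal axis), in responders (blue) and non-responders (red, without the Day 24 library of non-responder 29). On this TMM scale Asns lies between 1.12 and 2.10 throughout, Phgdh and Psat1 lie below 0, and Chac1 in non-responders goes from 1.51 on Day 9 to -0.32 on Day 17.

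Whether the groups changed differently was tested by the interaction of day and response. By edgeR without a covariate 0 of the 8 genes was called on any day, against 0%, 0.351% and 3.76% of all genes on Days 9, 17 and 24, the last with 1.67% higher. Unadjusted p under 0.05 was reached by 0 genes on Day 9, by Chac1 and Asns on Day 17 and by Chac1 and Atf4 on Day 24, and DESeq2 called 0, 1 (Chac1) and 2 (Chac1 and Asns). Without the library of non-responder 29 an unadjusted p under 0.05 was reached by Ddit3 on Day 9 and by Chac1 alone on Day 24, and 1.12% of all genes were called on Day 24. For Chac1 the change in responders exceeded that in non-responders by 1.85 ± 0.52 on Day 17 (adjusted p = 0.0948), with a 95% interval from 0.82 to 2.87, and by 1.54 ± 0.51 on Day 24 (adjusted p = 0.0612). With the ear tag in the fit these were 0.06 and 0.50. That fit, which holds the library of non-responder 29, called Atf4 (-0.59, adjusted p = 0.0142) and Shmt2 (-0.51, adjusted p = 0.046) on Day 24. For Phgdh the interval on Day 9 ran from -0.18 to 0.16 and for Psat1 from -0.30 to 0.11.

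A comparison by ear tag sets non-responders of 4-digit tags against those of 3-digit tags on each day, and here all 10 genes were tested. The rule that chose the genes does not name the tag, but tag length is not balanced over response. For Mthfd2 and Atf5 these tests are thus not independent of the choice. On Day 4 Chac1 ran from -3.28 to -1.41 log2 CPM in the 7 mice of 4 digits and from -2.65 to 1.11 in the 22 of 3 digits. Its median was -2.24 in the first and -0.28 in the second. The difference was -2.15 ± 0.41 on Day 4 (adjusted p = 0.00199) and -1.92 ± 0.42 on Day 9 (adjusted p = 0.00507). On Day 17 it had the other sign, 1.47 ± 0.21 (adjusted p = 8.06e-06), with mice of 4 digits between -0.74 and 0.68 and those of 3 digits between -2.30 and -0.29. On Day 24 it was 0.08 ± 0.39 and not called.

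The change of Chac1 from Day 4 to Day 17 in non-responders thus had opposite signs in the 2 sets, each past its test: it rose by 2.51 ± 0.34 with 4 digits (adjusted p = 1.12e-05) and fell by 1.09 ± 0.27 with 3 digits (adjusted p = 4.24e-04). In responders it rose by 2.32 ± 0.35 with 4 digits (adjusted p = 6.12e-06), and with 3 digits, in 4 mice, it was not called. On Day 24 Chac1 rose in non-responders of 4 digits by 2.07 ± 0.35 (adjusted p = 4.61e-04), and with 3 digits it was -0.15 ± 0.25 and not called. On Day 9 it rose in each of these 4 sets, by 1.58 and 2.67 in responders and 1.68 and 1.48 in non-responders of 4 and 3 digits. For Asns on Day 17 the rise in non-responders was 2.12 ± 0.69 with 4 digits and 2.09 ± 0.21 with 3 digits. In responders it was 1.42 ± 0.39 with 4 digits (adjusted p = 0.00731), and with 3 digits the change of 0.36 ± 0.71 was not called (adjusted p = 0.756).

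On Days 4, 9 and 17 the other genes differed less by tag. Within non-responders, mice of 4 digits were higher in Asns by 0.87 ± 0.25 on Day 9 (adjusted p = 0.0261), in Atf5 by 0.62 ± 0.18 on Day 9 (0.0253) and 0.86 ± 0.24 on Day 17 (0.0122), and in Atf4 by 0.35 ± 0.08 on Day 17 (0.00258). In all, 1, 3, 3 and 3 of the 10 genes were called on Days 4, 9, 17 and 24, against 5.31%, 9.05%, 18.7% and 4.61% of all genes. The calls of Mthfd2 and Atf5 among them are not independent of the choice of genes. Genes lower with 4 digits, as Chac1 was on Days 4 and 9, made up 3.5% on Day 4 and 3.49% on Day 9, and 5.57% were higher on Day 9. On Day 17, when the 3 called genes were higher with 4 digits, 10.4% of all genes were higher and 8.34% lower. The 3 on Day 24 were Mthfd2 (2.38 ± 0.50), Atf4 (1.08 ± 0.27) and Atf5 (5.34 ± 0.67), all higher with 4 digits. They rested on non-responder 29, a mouse of 4 digits. Without its library 0 of the 10 was called by edgeR, each 95% interval included 0, and 0.0701% of all genes were called.

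Across the mice of each day, the levels of Mthfd2, Atf5, Asns and Atf4 were higher where haemoglobin took more of the counts. For Mthfd2, r was 0.78, 0.72, 0.74 and 0.72 on Days 4, 9, 17 and 24 (n = 44, 45, 44 and 45 mice). For Atf5 it was 0.79, 0.67, 0.67 and 0.47. These 2 are given without a test. Within responders r for Mthfd2 was 0.78, 0.71, 0.83 and 0.76, within non-responders 0.77, 0.61, 0.66 and 0.71, and it lay between 0.61 and 0.80 within either length of tag, so it held within each group as well as over both.

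The other 8 genes were tested by permutation with 100000 resamples, adjusted over all genes of a day. By r, 5, 3, 2 and 5 of them were called on the 4 days, where 55.1%, 17.9%, 14.8% and 40.6% of all genes were called. Asns had r = 0.58 and rho = 0.56 on Day 4 (permutation adjusted p = 1.35e-04 and 2.02e-04), r = 0.60 and rho = 0.63 on Day 9 (4.53e-04 and 1.67e-04), r = 0.56 and rho = 0.57 on Day 17 (0.0022 and 0.00118) and r = 0.50 and rho = 0.41 on Day 24 (0.00135 and 0.0368). Without the 2 mice farthest from the median share, its r was 0.64, 0.58, 0.47 and 0.38. On Day 4 the r of Asns was 0.80 within responders and 0.30 within non-responders. Atf4 had r = 0.47, 0.53, 0.63 and 0.50, and rho = 0.51, 0.53, 0.66 and 0.57, all called by permutation (largest adjusted p 0.00389), and 0.48, 0.51, 0.60 and 0.57 without those 2 mice. Within responders on Day 9 it was 0.00, and within non-responders 0.51. The values share a denominator within each library, and on the log2(TPM + 1) scale, where haemoglobin is part of that denominator, the sign turned: r for Atf4 was between -0.83 and -0.95 and 90.8% to 96.1% of all genes had a called negative r.

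Serine synthesis genes did not follow haemoglobin in 1 direction. Psat1 had r = 0.36 on Day 4 (permutation adjusted p = 0.0321), -0.24 on Day 9, -0.34 on Day 17 (0.107) and -0.48 on Day 24 (0.00408), the last of which was -0.26 without the 2 farthest mice. Its rho was 0.285 on Day 4 (permutation adjusted p = 0.104) and -0.306 on Day 24 (0.139), so neither call held by rank. Phgdh had r = 0.37 on Day 4 (0.024), with rho = 0.365 (0.032), and was not called later. Chac1 was called on Day 24 by r (0.36, 0.0436) and not by rho (0.316, 0.127). Shmt2 had r = 0.44 on Day 4, 0.46 on Day 9, 0.00 on Day 17 and 0.48 on Day 24, called by r on all days but Day 17. The Day 24 value includes the library of non-responder 29, with Shmt2 at 6.13 log2 CPM against 2.84 for the next of its set. The Day 9 value of Shmt2 was 0.27 without the 2 farthest mice, and its rho that day was 0.347 (0.0871), not called.

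**Figure D4:**
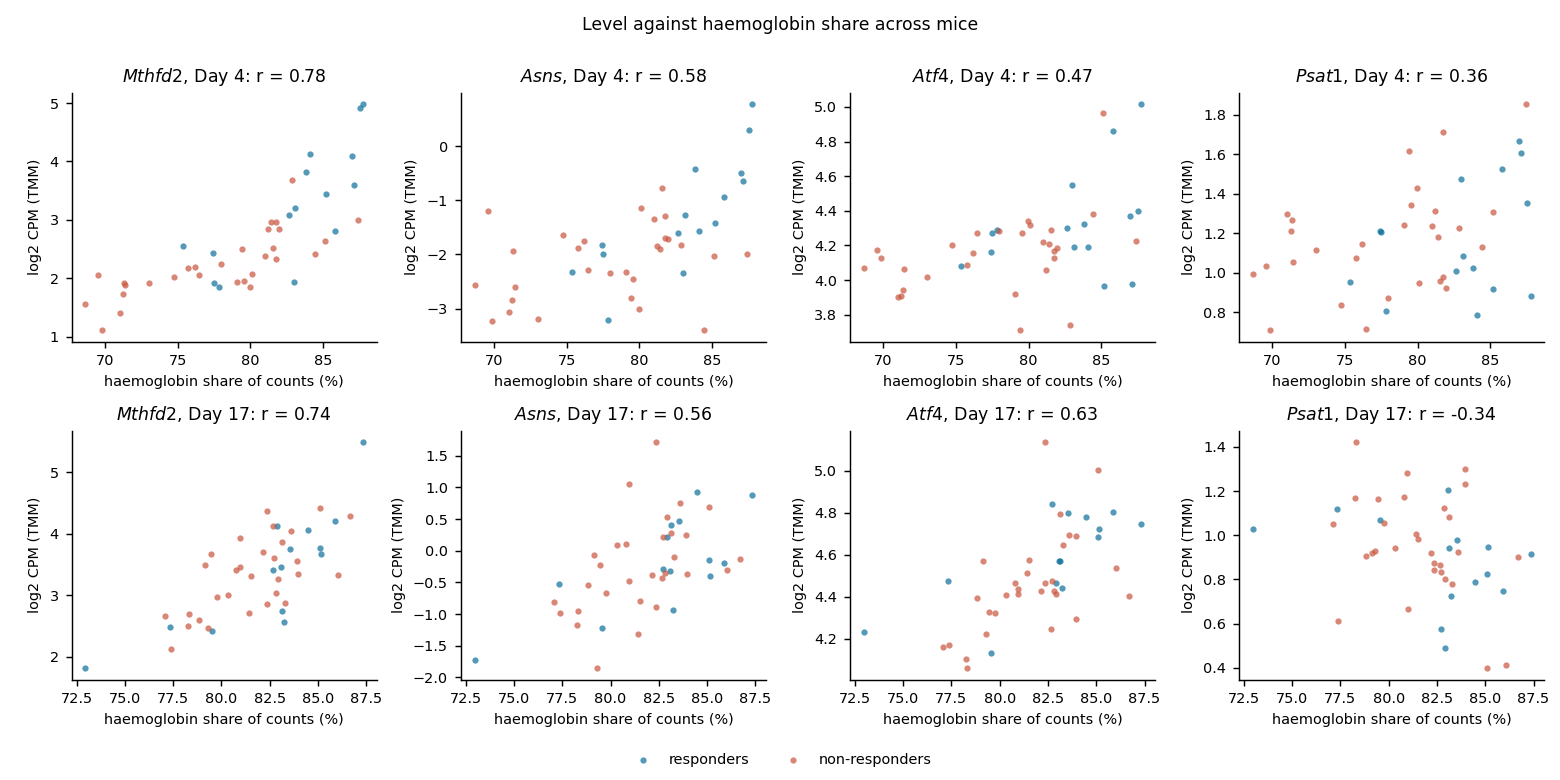
Level in log2 CPM (vertical axis) against the percent of a library's counts in haemoglobin genes (horizontal axis) on Days 4 and 17, for Mthfd2, Asns, Atf4 and Psat1, with 1 point for each mouse. Mthfd2 climbs with the share in both groups (r = 0.78 and 0.74), while Psat1 goes from r = 0.36 to -0.34.

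After subtracting the mean of each day and response group, Mthfd2, Asns and Atf5 varied together over the 177 libraries without that of non-responder 29: r was 0.71 for Mthfd2 and Asns, 0.73 for Mthfd2 and Atf5 and 0.65 for Asns and Atf5. Atf4 had r = 0.61 with Atf5, 0.49 with Asns and 0.41 with Mthfd2. Chac1 had r between -0.04 and 0.23 with Mthfd2, Asns, Atf4 and Atf5, and Psat1 and Phgdh had r = 0.34 with each other. Up to 4 libraries come from 1 mouse and all share their scaling, so these are descriptions. The median over the 45 pairs was 0.14 with all 178 libraries and 0.01 without that library.

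Against marker lists, the mean log2 CPM of the reticulocyte list had r = 0.805 with Mthfd2, 0.70 with Asns, 0.66 with Atf5 and 0.52 with Atf4. The proliferating cell list, with 8 of 8 genes past the filter, had r = 0.61 with Mthfd2, 0.57 with Asns, 0.41 with Atf5 and 0.41 with Atf4. The platelet list, with 8 of 8 genes past the filter, had r = 0.61 with Atf4, 0.43 with Atf5, 0.32 with Mthfd2 and 0.20 with Asns. Phgdh had r = 0.36 with the B cell list and 0.35 with the T cell list, against 0.16 with the NK cell list and 0.01 with the plasma cell list. Chac1 went with the epithelial list at 0.54, of which 6 of 7 genes passed the filter and 1, Trp63, had a median count of 0. That list ran from -2.47 to 3.60 log2 CPM in non-responders on Day 9 and from -2.77 to -0.53 on Day 17. The part of any of these cell types in the values of the genes was not tested.

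**Figure D5:**
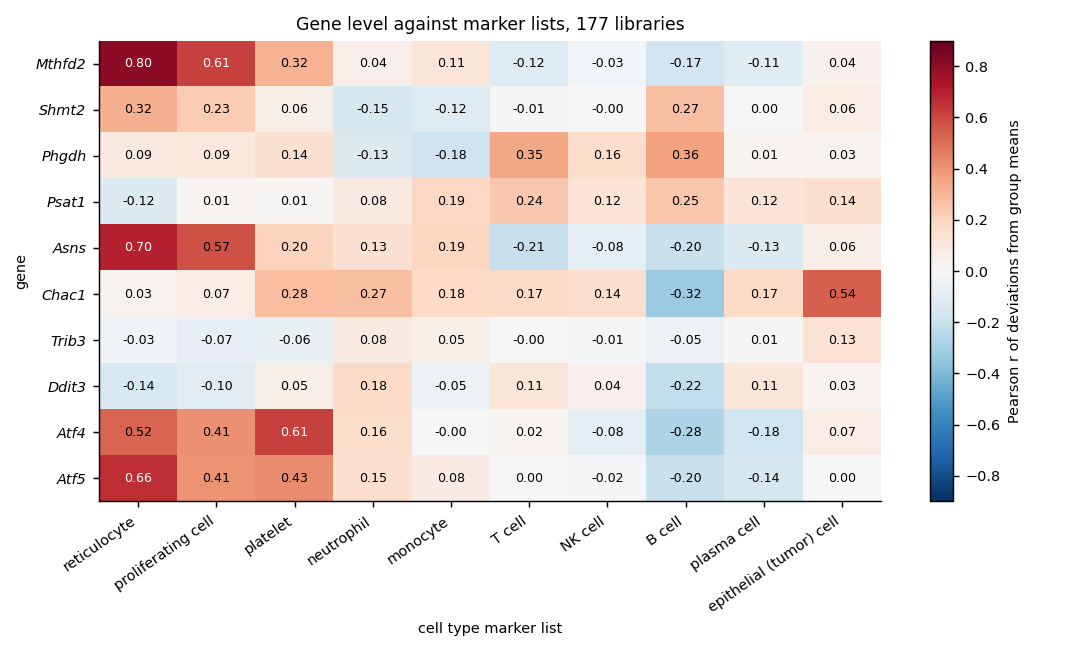
Pearson r between each gene (rows) and the mean level of each marker list (columns), from deviations from the means of the day and response groups over 177 libraries, without the Day 24 library of non-responder 29. Red is positive and blue negative. The strongest cells are reticulocyte with Mthfd2 (0.805) and with Asns (0.70), and Chac1 stands out for the epithelial list (0.54).

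Among all genes tested, those most like Mthfd2 over the 178 libraries were Wipi1 (r = 0.91), Mat2b (0.90), Slc3a2, Ube2b and Ghitm (0.89 each), and these 5 stayed the highest without the library of non-responder 29. Mat2b is a regulatory subunit of the enzyme that makes S-adenosylmethionine, and Slc3a2 is the heavy chain of several amino acid transporters. For Atf5 they were Gng5 (0.89), Cenpq (0.88), Eif1 (0.865), Stk40 (0.865) and Mat2b (0.86). Asns was like Cir1 and Atg4a (0.82 and 0.81), Chac1 like Asprv1, Emp1 and Gsto1 (0.89, 0.88 and 0.88), Phgdh like Cd2, Mybbp1a and Cd74 (0.69, 0.65 and 0.64) and Psat1 like Psmb8, Rtcb and Vpreb3 (0.59, 0.58 and 0.58). Atf4 was most like Pithd1, Gng5 and Fip1l1 (0.84 each). Without the library of non-responder 29 other genes led for Atf4, with Sec11c at 0.71, Pnpla8 at 0.69 and Birc2 at 0.69. For Atf5 they were then Eif1 (0.79), Slc3a2 (0.77), Cenpq (0.75), Cir1 (0.75) and Gng5 (0.75), and for Asns Mtfr1 (0.77), Cir1 (0.76) and Cenpq (0.76). Shmt2 reached 0.87 with Cnppd1, which was 0.46 without that library, Trib3 reached 0.58 with Rprd1b and Ddit3 0.50 with Akirin1 and Hnrnpk. Without that library the genes most like Trib3 and Ddit3 were others, Tex15 (0.30) and Ccng2 (0.36).

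Of 30 further ATF4 targets, 22 were tested in each response comparison on Days 4, 9 and 17. On Day 4, 3 were higher in responders and 0 lower, against 6.40% and 1.01% of all genes: the glycine transporter Slc6a9 (1.26 ± 0.26, adjusted p = 0.003), Slc7a5, the partner of Slc3a2 in leucine uptake (1.13 ± 0.24), and Slc3a2 (0.58 ± 0.15). On Day 9, 5 of 22 were higher and 0 lower, against 9.43% and 3.95% of all genes, with the same 3 leading at 0.99, 0.83 and 0.62. Their median differences were 0.034 and -0.022, where those of all genes were -0.005 and -0.025, and on Day 17 none of the 22 was called by edgeR. On Day 24, 2 of 21 were higher, the arginine transporter Slc7a1 (0.22 ± 0.06) and Aldh18a1 (0.13 ± 0.04), and 1 lower, the glutamine transporter Slc1a5 (-0.23 ± 0.05), against 3.41% and 5.14% of all genes. Without the library of non-responder 29 it was 4 higher and 2 lower, against 12.6% and 8.84%. The regulators of the integrated stress response gave Ppp1r15a, which helps to end it, on Day 4 (0.81 ± 0.21) and Day 9 (0.62 ± 0.12), and Eif2ak1, the haem-regulated kinase, on Day 9 (0.42 ± 0.08, adjusted p = 6.10e-05), 1 and 2 of 19 genes. Of 24 further one-carbon genes 2 were lower on Day 4 (Mtrr and Slc19a1), and of 23 on Day 9 Tyms was higher (0.49 ± 0.13) and Fpgs lower (-0.31 ± 0.08). Of 20 cytosolic tRNA synthetases, many of which are ATF4 targets, 0 was called on Day 4 and 1 on Day 9 (Nars, 0.29 ± 0.05). Several of these Day 9 genes also went with the ear tag: within non-responders mice of 4 digits were higher in Slc6a9 (0.81, adjusted p = 0.00281), Slc7a5 (0.63, 0.019), Slc3a2 (0.39, 0.0289), Eif2ak1 (0.32, 0.0116) and Nars (0.22, 0.00797).

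On Day 17, 4 of 19 genes of the endoplasmic reticulum stress response were higher in responders and 0 lower, against 0.799% and 1.19% of all genes, and the list's median difference was 0.14 where that of all genes was 0.008. They include Pdia3 (0.21 ± 0.05), Manf (0.26 ± 0.07) and Calr (0.24 ± 0.06), which fold or guard secreted proteins. The mitochondrial chaperone partners Hspe1 (0.37 ± 0.09) and Hspd1 (0.29 ± 0.08) were higher too, 2 of 14 genes of the mitochondrial stress list. All these calls ended with the length of the ear tag in the fit, where 0 of 12520 genes were called in the Day 17 response. On log2(TPM + 1) with limma 0.00799% of all genes were called that day. Within non-responders, 12 of 20 genes of the endoplasmic reticulum list were higher with 4-digit tags on that day, against 10.4% of all genes, and so were Hspd1 (0.36 ± 0.07, adjusted p = 0.000239) and Hspe1 (0.29 ± 0.10, adjusted p = 0.0395).

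By edgeR on the TMM scale, most of the tRNA synthetases were called lower on Day 9 than on Day 4, while some ATF4 targets were called higher. On log2(TPM + 1) with limma, 0.112% of all genes were called lower in responders and 9.32% in non-responders, so these counts belong to the TMM scale. Of the 20 synthetases, 12 fell and 1 rose in responders (median -0.226, all genes 0.008), and 17 fell and 1 rose in non-responders (median -0.173, all genes -0.014), where 14.2% and 27.5% of all genes fell. Kars, for lysine, fell by 0.54 ± 0.08 and 0.40 ± 0.05. On Day 17, 14 and 17 of them fell, where 13.4% and 24.2% of all genes did. The synthetase that rose on Day 9 was Nars, for asparagine, in responders (0.26 ± 0.09) and Cars, for cysteine, in non-responders (0.12 ± 0.05).

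Of the 22 further ATF4 targets, 7 rose and 2 fell in responders on Day 9, and 10 rose and 5 fell in non-responders, where 13.5% and 23.3% of all genes rose. Nupr1, a stress-induced chromatin protein, rose by 1.37 ± 0.21 and 1.40 ± 0.14, Vegfa by 1.11 ± 0.29 and 1.62 ± 0.19, and the cystine transporter Slc7a11 by 1.64 ± 0.20 in non-responders. Slc7a1 and Aldh18a1 fell, by 0.31 and 0.40 in responders and by 0.34 and 0.32 in non-responders. Of the 19 regulators 5 rose and 4 fell in responders on Day 9 and 8 rose and 6 fell in non-responders, where 14.2% and 27.5% of all genes fell. On Day 17 it was 4 and 4, then 7 and 5, where 12.2% and 21.9% of all genes rose and 13.4% and 24.2% fell. Atf3 rose by 1.10 ± 0.17 and 1.31 ± 0.12 on Day 9 and Cebpb by 1.93 ± 0.28 and 1.24 ± 0.20 on Day 17, while Gcn1l1, an activator of the kinase GCN2, fell by 0.20 and 0.27 on Day 9 and Eif2b5, a subunit of the exchange factor of eIF2, by 0.24 and 0.27. Of the further one-carbon genes, 6 of 24 fell in responders and 10 of 24 in non-responders on Day 9, against 14.2% and 27.5% of all genes. Among them were Mthfd1, the cytosolic folate enzyme (by 0.49 ± 0.08 and 0.34 ± 0.04), and Ahcy (by 0.56 ± 0.09 and 0.43 ± 0.05). In non-responders on Day 24, Slc7a5, Pycr1 and Slc3a2 rose by 1.80, 2.38 and 0.94, or by 1.04 ± 0.14, 1.19 ± 0.22 and 0.44 ± 0.08 without the library of non-responder 29.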

How the data were processed

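Whole-blood RNA of 45 mice was sequenced as poly(A) libraries, and per the labels reads were aligned with STAR to mm10. The counting tool, its version and its strand setting are not given in the sources used here. The authors deposited estimated counts for 55450 gene rows and TPM values beside them, and 3.14% of the count values were not whole. Estimated counts were rounded, scaled by TMM, filtered with filterByExpr and tested with the quasi-likelihood test of edgeR 4.0.16 (R 4.3.3), with Benjamini-Hochberg adjustment over all genes tested and a threshold of 0.05. Levels are log2 CPM with a prior count of 2, and TPM was used to compare levels between genes and, as log2(TPM + 1) and log2(TPM + 0.1) in limma 3.58.1, as an alternative. DESeq2 1.42.0 was the alternative count test. The 10 genes and all gene lists were chosen with earlier results of these data known. Named from each other list were up to 3 called genes of smallest p in each direction of a comparison, and the 5 genes most like Mthfd2 and Atf5 or the 3 most like each other gene by r of deviations from the 8 group means. Fits of response used the libraries of 1 day, fits of change those of 1 response group, and the difference of change all libraries. The p-values of the response and ear tag fits measure the spread between mice within the groups. Those of the change and difference of change measure the spread between libraries, with libraries of 1 mouse taken as separate unless a mouse block is named. Permutation for the haemoglobin relation ran over all mice of a day, of both response groups.

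The haemoglobin relation was tested with Python 3.11.15 and scipy 1.17.1. Its p-values were adjusted over all genes of a day, where adjustment over the genes described had been planned. Libraries of 1 mouse come from the same animal, and their deviations from the group means had mean correlations of -0.05 to 0.097 over pairs of days. On simulated counts for the Day 9 response comparison (12608 genes), edgeR recovered 78% of genes changed 1.5-fold and 96% of those changed 2-fold, and for the Day 17 difference of change (13688 genes) 56% and 78%. Alternatives were no filter, other scaling, TPM, the ear tag as a covariate or split, a block for the mouse, a fold threshold of 1.5, the other label for the library of non-responder 24, and leaving out single mice or libraries. Some genes that these rules name are not reported here.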

Additional observations from a re-analysis of the deposited data

Results flagged for a closer look

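In groups split by day, response and length of the ear tag, 12 of 90 sets of 4 to 10 libraries held a library whose gap to its nearest neighbour was large for the range of the set, where chance gives about 1 in 20. Of these, 9 are the Day 24 library of non-responder 29, set against the other libraries of its 7. In it Mthfd2 was at 9.14 log2 CPM (next highest 4.58), Shmt2 at 6.13 (2.84), Asns at 4.27 (0.02), Trib3 at 3.18 (-1.39), Ddit3 at 2.4 (0.93), Atf4 at 7.44 (4.47) and Atf5 at 9.60 (2.15). Psat1 at -0.02 and Phgdh at 1.41 were the lowest of the set, with the next lowest at 0.77 and 2.03. The reticulocyte list averaged 12.1 log2 CPM in that library, and the library's TMM factor was 0.0848. The part of either in these levels was not tested. The same mouse had the highest Atf5 of its set on Day 17, at 3.73 against 2.32 for the next. Among 4 responders with 3-digit tags, responder 3 had the highest Phgdh on Day 9, at 2.37 against 2.06, and responder 2 the lowest Ddit3 on Day 4, at 0.13 against 1.04.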

How the results depend on the processing

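With all libraries, mouse as a block changed no call of the 8 genes, with Asns in responders on Day 9 at 1.58 in the paired fit. Leaving out non-responder 29 on Day 24, the block changed 1 call, the Day 24 change of Atf4 in non-responders, from 0.09 to 0.11 with an edgeR adjusted p of 0.0187. Leaving out non-responder 29 on Day 24, 2 genes were called in the Day 24 response, 0 in the Day 24 comparison by ear tag (Mthfd2 at -0.19 there), Atf4 in the Day 24 response was 0.13 (0.12 by DESeq2), and the median r over pairs was 0.0142. The cause of the other shifts was not tested. DESeq2 called 2 genes in the response on Day 4 and 2 on Day 24, and 1 and 2 in the difference of change on Days 17 and 24, where it called 8.83%, 17.2%, 0.65% and 6.39% of all genes.

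With the ear tag in the fit, 0, 1 and 0 genes were called in the response on Days 4, 9 and 17, and 2 in the difference of change on Day 24, against 13.4%, 7.46%, 0% and 9.55% of all genes. With 4-digit tags alone 0, 0 and 0 were called in the response on those days (0% of all genes on each), 3 in the change of responders on Day 17 (19.8%), 2 and 2 in that of non-responders on Days 9 and 24 (14.3% and 3.96%), where fewer mice were tested, and 1 in the difference of change on Day 24 (4.96%). With 3-digit tags alone it was 0, 0 and 0 in the response (0%, 4.17% and 0.00756%) and 2, 0 and 0 in the change of responders (6.91%, 0% and 0%). The Day 17 change of Chac1 turned to -0.84 in responders of 3 digits (Atf4 to -0.0495) and to 2.51 in non-responders of 4 digits. A fold of at least 1.5 left 1 and 0 genes in the response on Days 9 and 17 (3.65% and 0.264% of all genes), 2 and 2 in the change of responders on Days 9 and 17 (7.06% and 4.5%), and 2, 1 and 1 in that of non-responders (9.89%, 4.96% and 6.03%). Leaving out each responder in turn gave 0 to 2 called genes in the response on Days 4 and 17.

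On TPM, where haemoglobin is part of the denominator by construction, log2(TPM + 1) and log2(TPM + 0.1) both called 7 genes in the response on Days 4 (83.8% and 86.5% of all genes) and 9 (88.3% and 90.3%) and 0 on Day 17 (0.00799% by both), 2 in the change of responders on Day 9 (1.7% and 2.39%), 0 and 1 on Day 17 (0.207% and 0.534%), 0 and 1 on Day 24 (0.112% and 0.478%), 7 in that of non-responders on Day 24 (70.4% and 64.9%) and 1 in the difference of change on Day 24 (9.69% and 7.81%). Signs turned in the response on Day 4 for Shmt2 (-0.47 and -0.76), Psat1 (-0.21 and -0.57), Ddit3 (-0.35 and -0.66) and Atf4 (-0.51 and -0.62), and on Day 9 for Shmt2 (-0.44 and -0.68), Trib3 (-0.0331 and -0.20) and Atf4 (-0.42 and -0.50). In non-responders they turned on Day 17 for Ddit3 (-0.23 and -0.34) and Atf4 (-0.0778 and -0.0786) and on Day 24 for Shmt2 (-0.21 and -0.27), Trib3 (-0.0282 and -0.17) and Atf4 (-0.24 and -0.27). The haemoglobin relation in log2(TPM + 1) called 7 genes on Day 9 and 6 on Day 17, and r turned negative. On Day 4 it was -0.24 for Mthfd2, -0.928 for Shmt2, -0.945 for Psat1, -0.927 for Phgdh, -0.0901 for Asns, -0.928 for Ddit3, -0.930 for Atf4 and -0.741 for Atf5. On Day 9 it was -0.90 for Shmt2, -0.923 for Phgdh, -0.0394 for Asns, -0.565 for Trib3, -0.953 for Atf4 and -0.146 for Atf5. On Day 17 it was -0.854 for Shmt2, -0.51 for Trib3, -0.863 for Ddit3 and -0.834 for Atf4. On Day 24 it was -0.832 for Shmt2, -0.173 for Asns, -0.0946 for Chac1, -0.907 for Ddit3 and -0.928 for Atf4. Trib3 and Asns had the lowest counts of the set, with means of 12.4 and 34.9 per library, and what such counts keep from being seen was not tested.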
